A study of Mus musculus with 2 samples.

Results

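The cells described here are Ccr2-expressing monocytic phagocytes with little Il1b and little C1q RNA, taken from mouse tumours by their transcript counts. A cell barcode was a member when it had at least 1000 unique molecular identifiers (UMIs, 1 per captured transcript molecule), at least 2 Ccr2 UMIs and, per 10000 UMIs, at least 20 of Lyz2, under 20 of Il1b, under 40 of C1qa, C1qb and C1qc together and under 50 of S100a8 and S100a9 together. It could hold at most 1 UMI each of the Cd3 genes (Cd3e, Cd3d and Cd3g together), of Ncr1 and Klrb1c together, of Ccr7 and of Flt3. The rule found 295 members among 11246 barcodes, 149 of 5993 in the TMEM16F KO library and 146 of 5253 in the vector control library. The members were chosen by their measured UMIs of these genes, so the levels of the genes in the rule are given as a description only.

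Classical monocytes leave the bone marrow and enter inflamed tissue and tumours through CCR2, the receptor of the chemokine CCL2. Inside a tumour they lose Ly6c2, acquire MHC class II, complement and lipid-handling genes, and can become macrophages or monocyte-derived dendritic cells. Il1b encodes interleukin 1 beta, a cytokine made by activated phagocytes, and the C1q genes encode the first complement component, made by mature tissue macrophages.

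Each library came from tumours of MC38 cells, a mouse colorectal cancer line, at day 21 after engraftment in untreated mice. In the TMEM16F KO group the engrafted cells lacked TMEM16F, a calcium-activated phospholipid scramblase encoded by Ano6, and in the vector control group they carried the vector. The members are phagocytes by their transcripts and not the engrafted line in which the deletion was made. The study states 10782 cells of 14 types and describes them as lymphocytes of the tumour, while the tissue label names tumour and the files hold many phagocytes. The labels do not give the age or strain of the mice, how many mice stand behind a library or how many clones behind the KO line. There was 1 library per group, so no difference between the groups has a replicate check, and the groups cannot be told apart from the tumours or cell preparations behind the libraries. All intervals are exact 95% intervals that cover counting error only, and a gene is called higher or lower when its level in CPM (UMIs summed over members, scaled to the same total in each library) differed by at least 1.5-fold. In such sums fewer cells with a transcript and fewer transcripts per cell cannot be told apart, so the share of cells with a UMI is given where it matters.

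The members were well covered. In the TMEM16F KO library they held 1625058 UMIs, with a median of 10023 UMIs and 2849 genes per cell, and in the vector control library 1765978 UMIs, with a median of 11217.5 UMIs and 2877 genes. The range ran over 1670 to 42263 UMIs in TMEM16F KO members and over 1001 to 41515 in vector control members. A gene with 0 UMIs could have stood at up to 1.85 CPM in TMEM16F KO members and 1.70 CPM in vector control members, the level of 3 counts. The libraries shared 10 barcodes, and none of these was a member.

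Of the markers that define the label, Ccr2 and Lyz2 were fixed by the rule and so check nothing, and Ly6c2, outside the rule, was read in a minority of members. Ly6c2, the monocyte surface antigen Ly6C, stood at 148 CPM in TMEM16F KO and 151 CPM in vector control members, with a UMI in 39.6% and 43.8% of them. The T cells of the same libraries, which also transcribe the gene, had a Ly6c2 UMI in 53.6% and 51.6% of cells at median depths of 4983 and 5496.5 UMIs. Plac8, another transcript of young monocytes, was read in 58.4% of TMEM16F KO and 58.9% of vector control members. At the same time Arg1 (2994 and 3037 CPM), Spp1 (5810 and 4173 CPM), Cd74 (10759 and 10708 CPM) and Mrc1 (142 and 109 CPM) were present, genes that tumour macrophages and antigen-presenting cells use. By these markers the members held both monocyte and macrophage transcripts, and Ly6c2 was not read in every one.

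Markers of most other cell types were sparse, apart from those of type 2 conventional and monocyte-derived dendritic cells. T cell markers summed to 45.5 CPM in TMEM16F KO and 31.7 CPM in vector control members, with Lck at 0 in both. B cell markers summed to 21.5 and 14.2 CPM with Ms4a1 at 0, and NK cell markers to 24 and 16.4 CPM. Neutrophil markers summed to 31.4 and 64.0 CPM with Cxcr2, Retnlg, Ly6g, Ngp and Camp at 0, and stroma and tumour markers to 39.4 and 49.8 CPM with Krt8 and Krt18 at 0. In the vector control library 29 of the 113 neutrophil UMIs lay in 1 cell, as did 45 of the 88 stroma and tumour UMIs. Plasmacytoid dendritic cell markers summed to 28.3 CPM against 0.566 CPM, and 43 of the UMIs in the TMEM16F KO library lay in 1 cell. At least 3 UMIs of another type's markers were held by 10 TMEM16F KO members and 16 vector control members. This count leaves out the monocyte, macrophage and type 2 dendritic cell lists. Markers of type 2 conventional and monocyte-derived dendritic cells summed to 289 CPM in TMEM16F KO and 358 CPM in vector control members. At least 3 of their UMIs were held by 46 and 58 members. Patrolling monocyte markers reached 3 UMIs in 53 and 63 members. Haemoglobin genes were at 0 in both.

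Members made up 2.63% (2.23 to 3.09) of the TMEM16F KO barcodes with at least 1000 UMIs and 3.06% (2.59 to 3.59) of the vector control ones, a ratio of 0.861 (0.681 to 1.09), so the interval of the ratio includes 1. The wider population they were drawn from, the Ccr2 phagocytes before the Il1b and C1q limits, made up 11.6% and 16.4%, a ratio of 0.710 (0.639 to 0.789). Among those 657 TMEM16F KO and 780 vector control Ccr2 phagocytes, members made up 22.7% (19.5 to 26.1) and 18.7% (16.0 to 21.6). The Ccr2 phagocytes with Il1b at or above the limit and little C1q made up 28.5% and 18.8%, a ratio of 1.51 (1.21 to 1.89). Those with C1q at or above the limit and little Il1b made up 29.7% and 41%, a ratio of 0.723 (0.602 to 0.867). These 2 groups, hereafter Il1b-high and C1q-high cells, are the nearest neighbours of the members and serve for comparison.

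The values that chose the members had close medians in both libraries. The median TMEM16F KO member had 5.08 Il1b and 5.68 C1q UMIs per 10000, and the median vector control member 5.89 and 5.27. The Il1b limit ran through a continuous range of cells. Just inside it, at 15 to 20 per 10000, lay 27 TMEM16F KO and 29 vector control members, and just outside, at 20 to 25, lay 23 and 9 cells. At the C1q limit 15 and 18 members lay at 30 to 40 per 10000 and 15 and 25 cells at 40 to 50. Members with exactly 2 Ccr2 UMIs numbered 44 and 36, and 73 and 65 cells were left out for having 1.

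**Figure D1:**
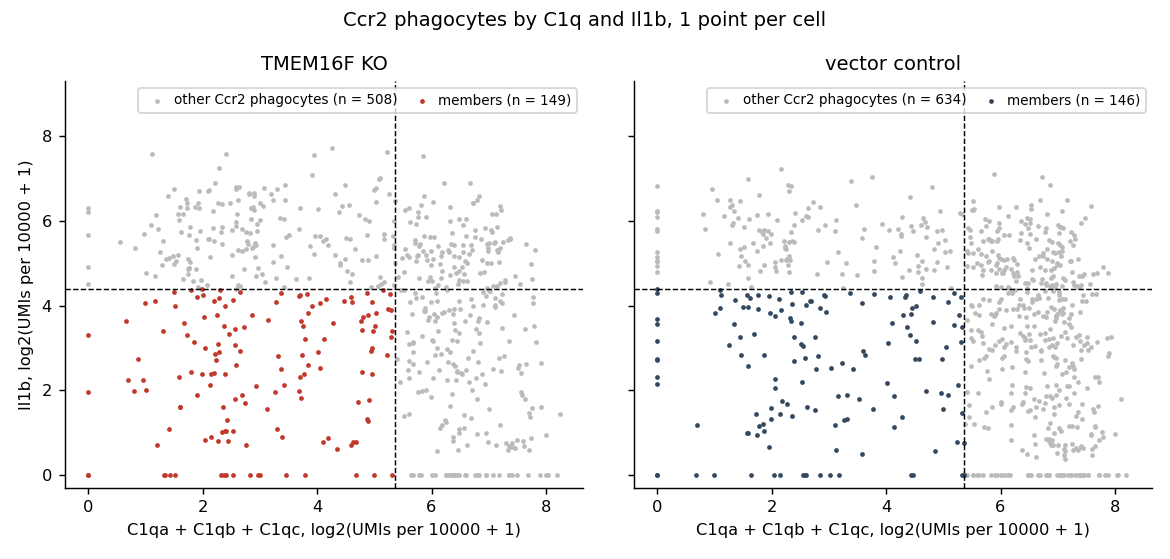
Each point is 1 Ccr2 phagocyte, placed by its C1qa, C1qb and C1qc UMIs (x axis) and its Il1b UMIs (y axis), both as log2 of UMIs per 10000 plus 1, in the TMEM16F KO library (left) and the vector control library (right). Coloured points are the 149 and 146 members below both dashed limits, and grey points are the other Ccr2 phagocytes, which continue on the far side of each limit without a gap.

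Across all genes, members of the TMEM16F KO library had more genes at a higher than at a lower level. Of 6087 genes with at least 50 UMIs over both libraries, 657 were at least 1.5-fold higher in TMEM16F KO members (10.8%) and 194 at least 1.5-fold lower (3.19%). The median log2 ratio of all these genes was 0.06, with quartiles of -0.16 and 0.32. Higher genes were 77.2% of those past 1.5-fold, and 65.2% when the libraries were scaled by median-of-ratios size factors (503 higher and 269 lower). Of 21 gene lists, the 2 interferon lists had the highest medians. The type I interferon list had 23 of its 32 compared genes past 1.5-fold on the higher side and 0 on the lower side, at a median log2 ratio of 0.74, and the interferon gamma list 10 of 16 and 0, at a median of 0.68. These counts stand against the 10.8% and 3.19% of all genes.

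**Figure D2:**
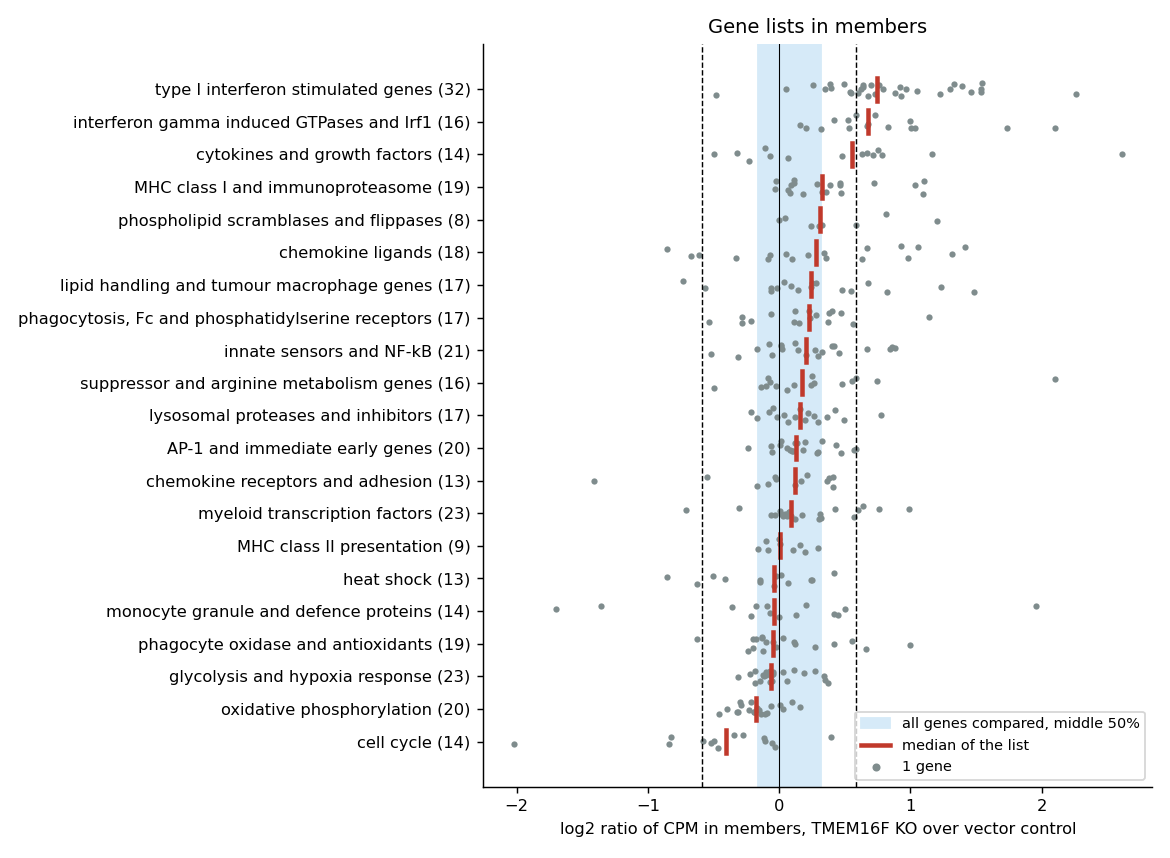
For each of the gene lists (rows), the points show the log2 ratio of TMEM16F KO over vector control CPM in members for every gene with at least 50 UMIs, with the list's median marked. The 2 interferon lists lie furthest to the right, at medians of 0.74 and 0.68, and the cell cycle list furthest to the left, at -0.41.

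Type I interferon stimulated genes, which cells switch on after interferon alpha or beta binds its receptor, were mostly at a higher level in TMEM16F KO members. Ifit3, whose protein binds viral RNA complexes, had 51.7 CPM in TMEM16F KO members and 10.8 CPM in vector control members, a ratio of 4.80 (2.89 to 8.37). Its UMIs lay in 16.1% and 8.22% of the cells, and the 5 highest cells of each library held 61.9% and 63.2% of them. Without those cells, left out after seeing the data, the ratio was 4.94. Every cell was then thinned to 2000 UMIs, which left out 2 TMEM16F KO and 5 vector control members. Of the thinned members 6.12% and 3.55% held an Ifit3 UMI against 7.94% and 6.80% of T cells, so these shares are not above the level in T cells. T cells may transcribe such genes themselves, so their share is a comparison and not a measure of free RNA. Rtp4, an interferon-induced regulator of the response, was spread over more cells, at 87.4 CPM in TMEM16F KO members and 30 CPM in vector control members, a ratio of 2.91 (2.11 to 4.07). It was read in 40.3% of TMEM16F KO and 23.3% of vector control members. At 2000 UMIs per cell the Rtp4 shares were 17.7% and 7.80%, against 8.22% and 7.0% in T cells. The vector control share of Rtp4 was therefore near that of the T cells, and the TMEM16F KO share lay above it. Oasl2, a relative of the antiviral oligoadenylate synthetases, had 76.3 and 27.7 CPM, a ratio of 2.75 (1.96 to 3.91), with 13.6% and 4.96% of thinned members holding a UMI against 3.33% and 1.17% of T cells.

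Isg15, the ubiquitin-like modifier of the response, had 433 CPM in TMEM16F KO and 222 CPM in vector control members, a ratio of 1.95 (1.72 to 2.21). Per cell, its median was 1.44 UMIs per 10000 in TMEM16F KO and 0.799 in vector control members, and the highest cells had 52.1 and 44.4, so the ranges of the cells overlapped. Rsad2, the antiviral enzyme viperin, had 97.8 and 39.6 CPM (ratio 2.47), Ifit1 44.9 and 19.3 CPM (2.33), and Usp18, which removes ISG15 from proteins, 22.8 and 9.06 CPM (2.51). Irf7, a regulator of the response, had 80.6 and 53.2 CPM (1.51). Among TMEM16F KO members the 5 highest cells held 57.9% of the Rsad2 UMIs, 53.4% of Ifit1, 35.1% of Usp18 and 26.7% of Irf7. Bst2, at 530 and 402 CPM (1.32), and Ly6e, at 775 and 748 CPM (1.04), stayed within 1.5-fold. Ifi27l2a went the other way, with 502 CPM in TMEM16F KO and 702 CPM in vector control members, a ratio of 0.715 (0.654 to 0.782). Ifi44 had 15 UMIs in TMEM16F KO and 0 in vector control members, too few for the comparison, as were Ifit3b, Oas3 and Cmpk2. Reads of Ifit3 and Ifit3b and of the Ifi204, Ifi205, Ifi209 and Ifi213 family could be divided among near copies, so their single values are uncertain.

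Per cell, the sum of the list overlapped between the libraries over nearly its whole range. The lowest TMEM16F KO member had 6.59 interferon-list UMIs per 10000, the median 31.9 and the highest 374, and the lowest vector control member had 2.65, the median 29.1 and the highest 256. The upper quartile was 57.0 and 51.0, and the 90th percentile 106 and 80.1, so the typical cells differed little and the upper cells more. Summed over cells the list stood at 4368 CPM in TMEM16F KO and 3285 CPM in vector control members. The same list had 15 of 27 compared genes past 1.5-fold higher in the TMEM16F KO library among Il1b-high cells (7.73% of all genes there) and 20 of 31 among C1q-high cells (6.96%), with medians of 0.70 and 0.71. In T cells its median was 0.31. The higher interferon-gene levels were thus found in the neighbouring Ccr2 phagocytes too, and are not called particular to the members.

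**Figure D3:**
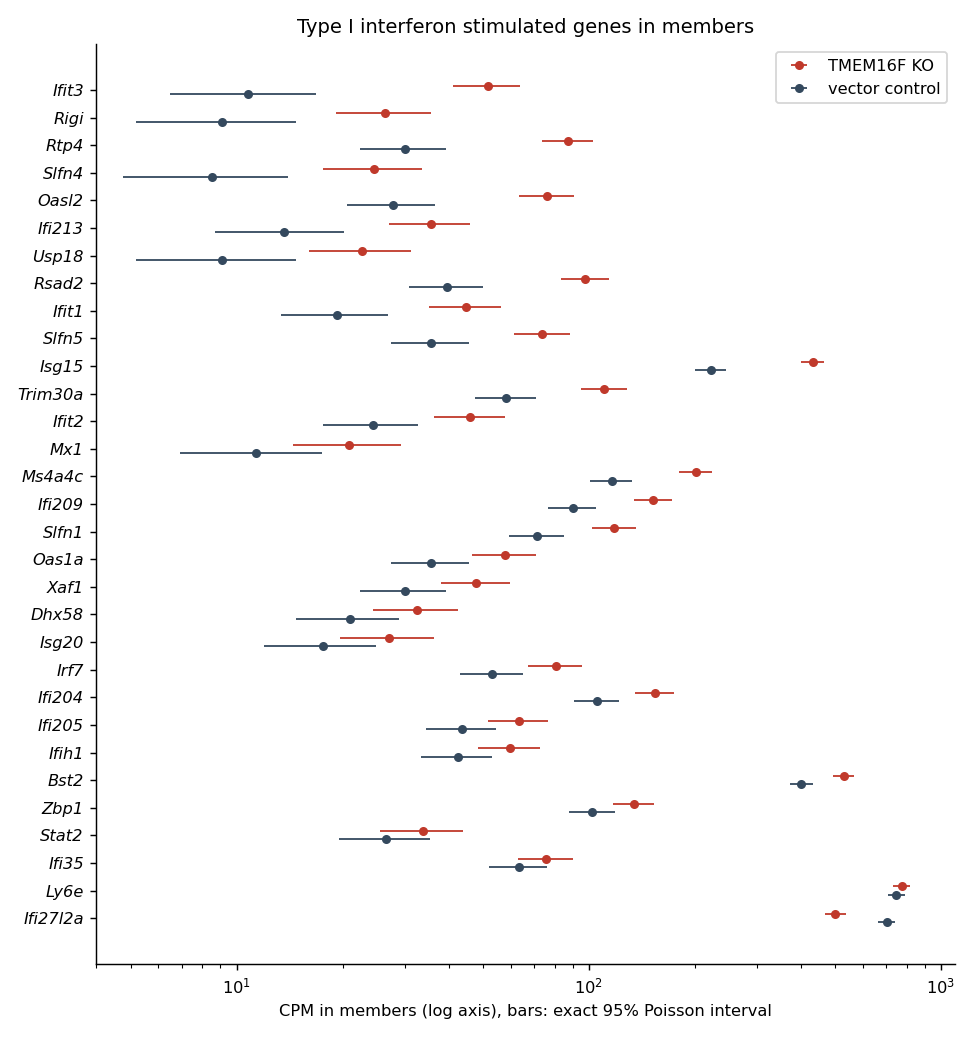
Levels of compared type I interferon stimulated genes in members, in CPM on a log axis, for the TMEM16F KO library (red) and the vector control library (dark blue), with bars for the exact 95% Poisson interval. All genes shown but Ifi27l2a have the higher value in the TMEM16F KO library, from Ifit3 (51.7 and 10.8 CPM) at the top to Ly6e (775 and 748 CPM) near the bottom.

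The 4 genes with the highest ratios that hold the motif within 200 bases before the start are shown because the letters they share are those of the interferon-stimulated response element, the DNA site bound by the interferon-activated factor ISGF3 and by IRF proteins. The motif searched was GAAA, any 2 bases and GAAA again, on either strand (on the opposite strand it reads TTTC, any 2 bases and TTTC), in the window from 250 bases before to 50 after each RefSeq gene start (GRCm38.p6). It lay in 15 of 27 matched promoters of the list (55.6%; 36 genes in the list), in 9 of 18 of those at least 1.5-fold higher (50%; 23 genes), and in 1079 of 27025 matched genes overall (3.99%). A match is a description of these letters and not evidence of binding. Each sequence runs 5′ to 3′ on the gene's strand with the matches in capitals: Ifit3 at chr19:34583329-34583528 (plus strand), Ifi213 at chr1:173599273-173599472 (minus), Rsad2 at chr12:26456453-26456652 (minus) and Ifit1 at chr19:34640689-34640888 (plus).
Ifit3: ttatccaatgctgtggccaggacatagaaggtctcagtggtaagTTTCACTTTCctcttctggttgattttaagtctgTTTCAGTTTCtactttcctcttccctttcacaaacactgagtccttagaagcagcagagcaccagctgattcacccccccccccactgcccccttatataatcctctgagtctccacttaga
Ifi213: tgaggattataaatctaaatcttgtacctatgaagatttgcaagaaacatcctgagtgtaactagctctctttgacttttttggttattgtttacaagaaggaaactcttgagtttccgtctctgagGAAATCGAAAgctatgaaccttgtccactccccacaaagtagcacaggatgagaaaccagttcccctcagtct
Rsad2: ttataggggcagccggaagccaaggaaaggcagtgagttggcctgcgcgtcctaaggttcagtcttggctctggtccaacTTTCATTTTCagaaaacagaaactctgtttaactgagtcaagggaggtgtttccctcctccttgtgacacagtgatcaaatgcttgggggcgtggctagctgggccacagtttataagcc
Ifit1: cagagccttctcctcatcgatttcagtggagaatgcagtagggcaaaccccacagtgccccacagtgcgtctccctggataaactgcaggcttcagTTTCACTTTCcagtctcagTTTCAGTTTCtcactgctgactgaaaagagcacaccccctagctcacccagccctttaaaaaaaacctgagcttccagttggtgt
Ifit3 and Ifit1 each hold 2 matches and Ifi213 and Rsad2 1 each, and the ratios of these 4 genes in members were 4.80, 2.33, 2.63 and 2.47 in the order Ifit3, Ifit1, Ifi213, Rsad2.

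Genes induced by interferon gamma, the cytokine of T and NK cells, followed the same direction in the members. Nos2, the inducible nitric oxide synthase of activated phagocytes, had 51.1 CPM in TMEM16F KO and 11.9 CPM in vector control members, a ratio of 4.3 (2.64 to 7.30), and was read in 23.5% and 9.59% of them, or 8.16% and 2.84% when thinned. Nos2 stood at 8.74 and 2.51 CPM in T cells of the 2 libraries, so the count in cells that should lack it was also higher in the TMEM16F KO library. The part of that background in the members' result was not tested. Gbp4, a guanylate-binding protein, had 58.5 and 17.6 CPM, a ratio of 3.33 (2.20 to 5.17), with 37.6% and 15.1% of cells holding a UMI. Thinned, the Gbp4 shares were 16.3% and 4.26%, against 10.1% and 8.36% in T cells. In the vector control library the members' share thus did not exceed that of the T cells, which may transcribe Gbp4 themselves. In the neighbours the ratio of Gbp4 was 1.26 among Il1b-high and 1.11 among C1q-high cells. The GTPases Gbp5 (41.8 and 20.4 CPM, ratio 2.05) and Iigp1 (107 and 53.2 CPM, 2.01) were also higher, while the transcription factor Irf1 had 221 and 165 CPM (1.34) and Socs1 124 and 111 CPM (1.11). Cd274, which encodes the checkpoint ligand PD-L1, had 201 and 134 CPM (1.50; 1.27 to 1.78). All 16 compared genes of the list had a ratio above 1. Among Il1b-high cells 7 of 16 compared genes of the list were past 1.5-fold higher (7.73% of all genes there), at a median of 0.47. Among C1q-high cells it was 7 of 18 (6.96%), at a median of 0.38. In T cells the median of the list was 0.44. The higher levels of this list were thus found in the neighbours too, and are not called particular to the members.

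Over all members, antigen presentation split by class. Of 19 compared genes for MHC class I and its peptide supply, 4 were past 1.5-fold higher and 0 lower (10.8% and 3.19% of all genes), at a median log2 ratio of 0.32. These 4 were H2-Q6 (51.1 and 23.8 CPM), H2-Q7 (165 and 80.4 CPM), H2-Q4 (56.0 and 34.0 CPM), 3 non-classical class I genes with near-identical copies that could share reads, and Nlrc5, the transactivator of class I genes (32.6 and 15.3 CPM). The classical gene H2-K1 had 1941 and 1408 CPM (1.38) and B2m, the light chain, 2914 and 2221 CPM (1.31). MHC class II genes had 0 of 9 past 1.5-fold on either side and a median of 0.01. In members with at least 2 Ly6c2 UMIs no such split was seen. There class II genes had 2 of 7 higher at a median of 0.30, and class I genes 2 of 14 at a median of 0.28 (8.51% of all genes there). H2-Aa had 5615 CPM in TMEM16F KO and 5016 CPM in vector control members, and Ciita, the class II transactivator, 33.8 and 36.2 CPM.

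Chemokine genes lay on both sides, with 7 of 18 past 1.5-fold higher in TMEM16F KO members and 3 lower. Of all genes 10.8% were higher and 3.19% lower. Pf4, the platelet factor 4 chemokine that macrophages also make, had 1593 CPM in TMEM16F KO and 597 CPM in vector control members, a ratio of 2.67 (2.48 to 2.87), in 67.1% and 49.3% of cells. Thinned to 2000 UMIs, the Pf4 shares were 41.5% and 24.1%, against 21.3% and 13.5% in T cells. In T cells Pf4 stood at 162 and 90.9 CPM, also higher in the TMEM16F KO library, and the part of this background in the result was not tested. Cxcl10, which draws CXCR3-bearing T and NK cells, had 825 and 433 CPM (1.90; 1.74 to 2.08), although the share of cells with a UMI was 64.4% and 69.2% (47.9% and 48.9% of T cells at their lower depth). Ccl5, another T cell chemokine, had 221 and 106 CPM (2.09), and the neutrophil chemokines Cxcl1 (368 and 186 CPM, 1.98) and Cxcl3 (102 and 40.8 CPM, 2.49) were higher as well. Cxcl3 was read in 11.4% and 11% of cells, and 78.8% and 73.6% of its UMIs lay in the 5 highest cells, without which its ratio was 1.99. Ccl12 had 321 and 207 CPM (1.55). Among TMEM16F KO members the 5 highest cells held 49.0% of the Ccl5 UMIs, 56.4% of Cxcl1, 57.2% of Ccl12, 43.4% of Pf4 and 37.5% of Cxcl10. On the lower side were Ccl6 (959 and 1468 CPM, 0.654), Ccl24 (63.4 and 101 CPM, 0.629) and Cxcl14 (16.0 and 28.9 CPM, 0.554). Ccl2, the ligand of CCR2, had 1222 and 1533 CPM (0.797), and Cxcl9 652 and 684 CPM (0.953).

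Of 14 compared cytokine and growth factor genes, 7 were past 1.5-fold higher and 0 lower (10.8% and 3.19% of all genes), at a median log2 ratio of 0.55. In members with at least 2 Ly6c2 UMIs the direction of the list turned, with 1 of 9 higher, 4 lower (8.51% and 8% of all genes there) and a median of -0.50. Tnf, the inflammatory cytokine, had 372 CPM in TMEM16F KO and 234 CPM in vector control members (1.59; 1.40 to 1.80), in 80.5% and 69.9% of cells. Thinned, the Tnf shares were 44.2% and 30.5%, against 27.3% and 26.2% in T cells. Il1rn, the natural antagonist of interleukin 1, had 195 and 119 CPM (1.64), and Inhba, the activin A subunit, 62.2 and 36.8 CPM (1.69). Gdf15, a stress-induced relative of the TGF-beta family, had the highest ratio of the genes with a name by the rule given under the processing, at 93.5 CPM in TMEM16F KO and 15.3 CPM in vector control members (6.12; 4.04 to 9.59). Its UMIs were in 15.4% and 8.22% of cells, thinned 6.12% and 2.84% against 2.20% and 0.875% of T cells, and the 5 highest cells of each library held 80.9% and 66.7% of them. Without those cells, left out after seeing the data, the ratio was 3.53. Tgfb1 had 143 and 202 CPM (0.709), Osm 206 and 242 CPM (0.853), and Il12b was not read in either library.

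Of 17 compared lipid-handling genes, 4 were past 1.5-fold higher and 1 lower, where 10.8% and 3.19% of all genes were. Macrophage markers, which include the C1q genes of the rule, Apoe and Pf4, had 5 of 14 past 1.5-fold higher and 0 lower. They summed to 5802 CPM in TMEM16F KO and 4007 CPM in vector control members (ratio 1.45, interval 1.40 to 1.49). Classical monocyte markers summed to 2600 and 2844 CPM (0.914). Apoe (1510 and 644 CPM) and Pf4 (1593 and 597 CPM) are part of the macrophage sum, and their joint excess is no smaller than that of the whole sum. The macrophage sum is therefore no separate difference beside the Apoe and Pf4 values. The part of the macrophage sum in the other lipid and lysosomal values was not tested. Apoe, a cholesterol carrier, had 1510 CPM in TMEM16F KO and 644 CPM in vector control members (2.35; 2.19 to 2.52), and its median per cell was 5.90 and 2.42 UMIs per 10000. Apoe is abundant in tumour macrophages and was read in T cells at 335 and 200 CPM. The source of these UMIs and the part of this background in the members' values were not tested. Abca1, the cholesterol export pump, had 167 and 59.5 CPM (2.80; 2.23 to 3.55), with 25.1 and 8.04 CPM in T cells. Fcgr4, an activating Fc receptor, had 270 and 122 CPM (2.21), Fcgr1 337 and 228 CPM (1.48), and the lysosomal protease gene Ctsl 1172 and 684 CPM (1.71). Clec4d, a C-type lectin, had 296 and 177 CPM (1.68), and Pla2g7, a lipid-cleaving enzyme, 183 and 104 CPM (1.76). Lpl (37.5 and 62.3 CPM, 0.603) and Axl, a receptor for phosphatidylserine-bound ligands (83.1 and 120 CPM, 0.692), were lower, and Lpl passed 1.5-fold while Axl did not. Fabp5, a fatty acid carrier, had 423 and 626 CPM (0.675), but was higher in the TMEM16F KO library among Il1b-high (ratio 1.60) and C1q-high cells (1.64).

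Ifitm1, an interferon-induced membrane protein gene on chromosome 7, had 1297 CPM in TMEM16F KO and 334 CPM in vector control members, a ratio of 3.88 (3.54 to 4.26). Its UMIs were in 65.8% and 44.5% of cells, thinned 47.6% and 22.7% against 33.7% and 25.8% of T cells, and the median cell had 2.38 UMIs per 10000 among TMEM16F KO members and 0 among vector control members. The ratio was 3.29 in Il1b-high cells, 2.72 in C1q-high cells and 1.51 in T cells, where the gene stood at 931 and 617 CPM. Its relatives Ifitm2 (1456 and 1031 CPM, 1.41) and Ifitm3 (2068 and 1519 CPM, 1.36) stayed within 1.5-fold. Among transcription factors, Bcl6, a repressor, had 119 and 60.0 CPM (1.99), and Zeb2, which monocytes and macrophages need, 577 and 340 CPM (1.70). Bhlhe40 had 115 and 188 CPM (0.612). Pde7b, a phosphodiesterase that breaks down cyclic AMP, had 57.8 and 18.7 CPM (3.1; 2.06 to 4.75), thinned in 8.84% and 2.84% of members and in 1.35% and 0.389% of T cells.

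Cx3cr1 and Chil3, genes of circulating monocytes, were among the 12 ranked lowest by their intervals. Cx3cr1, the fractalkine receptor of patrolling monocytes and macrophages, had 22.8 CPM in TMEM16F KO and 60.6 CPM in vector control members (0.376; 0.251 to 0.551), in 10.1% and 34.9% of cells. Thinned, the Cx3cr1 shares were 3.40% and 9.93%, against 6.45% and 6.12% of T cells. The TMEM16F KO share was thus no more than that of the T cells, which may transcribe Cx3cr1 themselves. Cx3cr1 was lower in the TMEM16F KO library in both neighbours too, with 5.13 and 31.9 CPM in Il1b-high and 50.1 and 108 CPM in C1q-high cells. In members with at least 2 Ly6c2 UMIs the order of Cx3cr1 turned, with 76.0 CPM in TMEM16F KO and 22.7 CPM in vector control members (ratio 3.35), as did that of Scd2 (1.49) and Selenoh (1.12). The Cx3cr1 turn rests on few cells. There were 27 UMIs in 7 of 37 TMEM16F KO members, 13 of them in 1 cell, and 10 UMIs in 5 of 41 vector control members. Chil3, the chitinase-like protein Ym1 of young monocytes, had 26.5 and 86.1 CPM (0.307; 0.214 to 0.434), thinned in 5.44% and 16.3% of members and in 0.709% and 0.292% of T cells, and Hp, the haemoglobin-binding haptoglobin, 11.1 and 28.3 CPM (0.391). F13a1, however, another gene of classical monocytes, was higher, with 256 and 129 CPM (1.98). Of 11 compared classical monocyte markers 2 were past 1.5-fold higher and 2 lower (10.8% and 3.19% of all genes). Of the 10 patrolling monocyte markers only 2 could be compared, with 0 past 1.5-fold higher and 1 lower. Hopx, an atypical homeodomain protein gene, had 86.8 and 189 CPM (0.460), and the actin-binding Tmsb10 2624 and 4505 CPM (0.582; 0.561 to 0.605). Tmsb10 was read in nearly every cell, at a median of 24.9 UMIs per 10000 in TMEM16F KO and 41.6 in vector control members. Crip1, a LIM-domain protein gene, had 1132 and 1736 CPM (0.652), with medians per cell of 10.3 and 16.2. Fgf13 (23.4 and 84.9 CPM, 0.275), Scd2, a fatty acid desaturase (52.9 and 113 CPM, 0.470), the linker histone H1f2 (30.2 and 67.4 CPM, 0.447) and Myc (20.3 and 45.3 CPM, 0.448) were lower as well, as were Qpct, a glutaminyl cyclase (35.7 and 73.6 CPM, 0.485), and Selenoh, a selenoprotein (38.8 and 77.6 CPM, 0.500). The ratio of Fgf13 was 0.910 in Il1b-high cells and that of Myc 1.34.

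**Figure D4:**
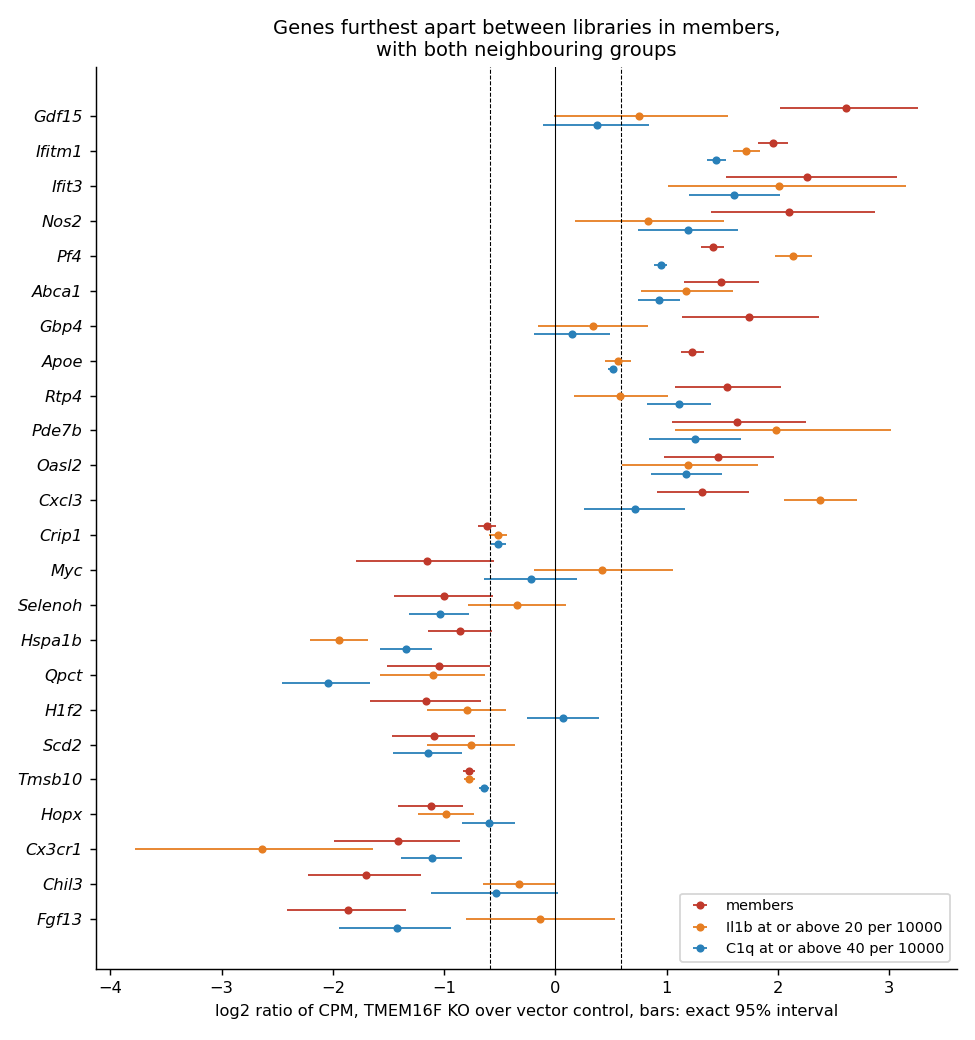
Log2 ratio of TMEM16F KO over vector control CPM for the 12 genes ranked highest and the 12 ranked lowest in members, with exact 95% intervals, beside the ratios of the same genes in Il1b-high and C1q-high cells. As linear ratios, Gdf15 is at 6.12 in members and stands at 1.68 and 1.29 in the neighbours, whereas Ifitm1 (3.88, 3.29 and 2.72) is high in all 3.

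Several lists had no gene past 1.5-fold. Glycolysis and hypoxia genes had 0 of 23 past 1.5-fold on either side (median log2 ratio -0.06), and immediate early genes 0 of 20 (0.13). Oxidative phosphorylation genes also had 0 of 20 past 1.5-fold, but they leaned lower, with 4 of 20 above a ratio of 1, a median of -0.18 and a sum of 6251 CPM in TMEM16F KO and 7127 CPM in vector control members (0.877; 0.854 to 0.900). Their median was -0.19 in Il1b-high cells, -0.22 in C1q-high cells and -0.12 in T cells. Arg1, the arginine-consuming enzyme of suppressive myeloid cells, had 2994 CPM in TMEM16F KO and 3037 CPM in vector control members. Chemokine receptor and adhesion genes had 0 of 13 higher and 1 lower, Cx3cr1, with Ccr1 at 225 and 169 CPM. Of the 13 heat shock genes 2 were lower, Hspa1b (94.8 and 172 CPM, 0.552) and Hspa1a (112 and 173 CPM, 0.646), near-identical genes between which reads can be divided. Hspa1b was lower in T cells as well (0.459). Against the 10.8% of all genes that were higher, 4 of 21 innate sensor and NF-kB genes were higher (19.0%), among them Casp4 (52.9 and 29.4 CPM) and Tlr13 (24 and 13 CPM), as were 3 of 16 suppressor genes (18.8%) and 4 of 23 myeloid transcription factors (17.4%), with 1 factor lower. In phagocytosis and lysosomal genes it was 1 of 17 each, in oxidase and antioxidant genes 2 of 19 with 1 lower, and in monocyte granule genes 1 of 14 with 2 lower.

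Cell cycle genes leaned to lower values, with 0 of 14 past 1.5-fold higher, 3 lower and a median log2 ratio of -0.41. Of all genes 10.8% were higher and 3.19% lower. Among Il1b-high cells 7 of 12 were lower (3.42% of all genes there), at a median of -0.77. Among C1q-high cells it was 14 of 20 (5.03%), at -1.04, and in T cells 7 of 20 (5.87%), at -0.51. The lean is therefore not called particular to the members. Tyms, a nucleotide synthesis enzyme, had 7.38 CPM in TMEM16F KO and 30 CPM in vector control members (0.246; 0.120 to 0.466), Pclaf, a PCNA partner, 34.5 and 61.2 CPM (0.563), and Mcm3, a replication licensing gene, 20.3 and 36.2 CPM (0.560). Mki67, the proliferation marker, had 12.3 and 12.5 CPM and too few UMIs for the comparison. After thinning to 2000 UMIs, at least 5 genes of the list were read in 13 of 147 TMEM16F KO members (8.84%; 4.79 to 14.6) and in 21 of 141 vector control members (14.9%; 9.46 to 21.9), and unthinned in 64.4% and 69.2%. The thinned intervals overlap, and no cycling is read from these counts alone.

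Ano6 itself was read in the members of both libraries, which are not the cells of the deletion. It stood at 33.8 CPM (55 UMIs) in TMEM16F KO and 14.7 CPM (26 UMIs) in vector control members, a ratio of 2.30 (1.42 to 3.82), with a UMI in 30.9% and 14.4% of cells. At 2000 UMIs per cell the shares were 7.48% and 3.55%, against 5.03% and 3.69% in T cells. The ratio was 1.12 in Il1b-high and 1.49 in C1q-high cells, so its size differed between groups of Ccr2 phagocytes, and that difference was not tested. A 3′ count of Ano6 in host phagocytes does not check the group labels. Of 8 compared genes for scramblases and flippases, 3 were past 1.5-fold higher, among them Ano6 and Atp8b4 (82.5 and 54.9 CPM), and 0 lower. Of all genes 10.8% were higher and 3.19% lower.

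Within the members, several genes differed with Ly6c2 in both libraries. Members with at least 2 Ly6c2 UMIs came to 37 TMEM16F KO cells (24.8%) and 41 vector control cells (28.1%), and members with 0 to 90 and 82. Members with Ly6c2 were shallower, at medians of 7776 and 9715 UMIs against 11352 and 11820 without it. Plac8 stood at 1745 CPM with Ly6c2 and 185 CPM without it among TMEM16F KO members, and at 1394 and 170 CPM among vector control members. Ms4a4c, a membrane protein gene of monocytes, stood at 507 and 93.3 CPM among TMEM16F KO members and at 274 and 53.2 CPM among vector control members. Irf7 (174 and 50.5 CPM, then 125 and 27.1 CPM) and Isg15 (718 and 335 CPM, then 351 and 176 CPM) were also higher with Ly6c2. In the other direction, the mannose receptor gene Mrc1 stood at 59.1 CPM with and 185 CPM without Ly6c2 in the TMEM16F KO library and at 56.6 and 140 CPM in the vector control library. Mgl2, a lectin of monocyte-derived dendritic cells and macrophages, stood at 56.3 and 191 CPM and at 81.6 and 226 CPM, and Trem2, a lipid receptor, at 253 and 431 CPM and at 222 and 379 CPM. Not every gene of these cell types followed Ly6c2. F13a1 stood at 84.4 CPM with and 346 CPM without Ly6c2 in TMEM16F KO members and at 129 and 132 CPM in vector control members. Clec10a, a lectin of dendritic cells, was higher with Ly6c2 in both (42.2 and 17.5 CPM, then 54.4 and 20.3 CPM). H2-Aa was higher with Ly6c2 among TMEM16F KO members (6441 and 5249 CPM) and lower among vector control members (3857 and 5134 CPM).

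**Figure D5:**
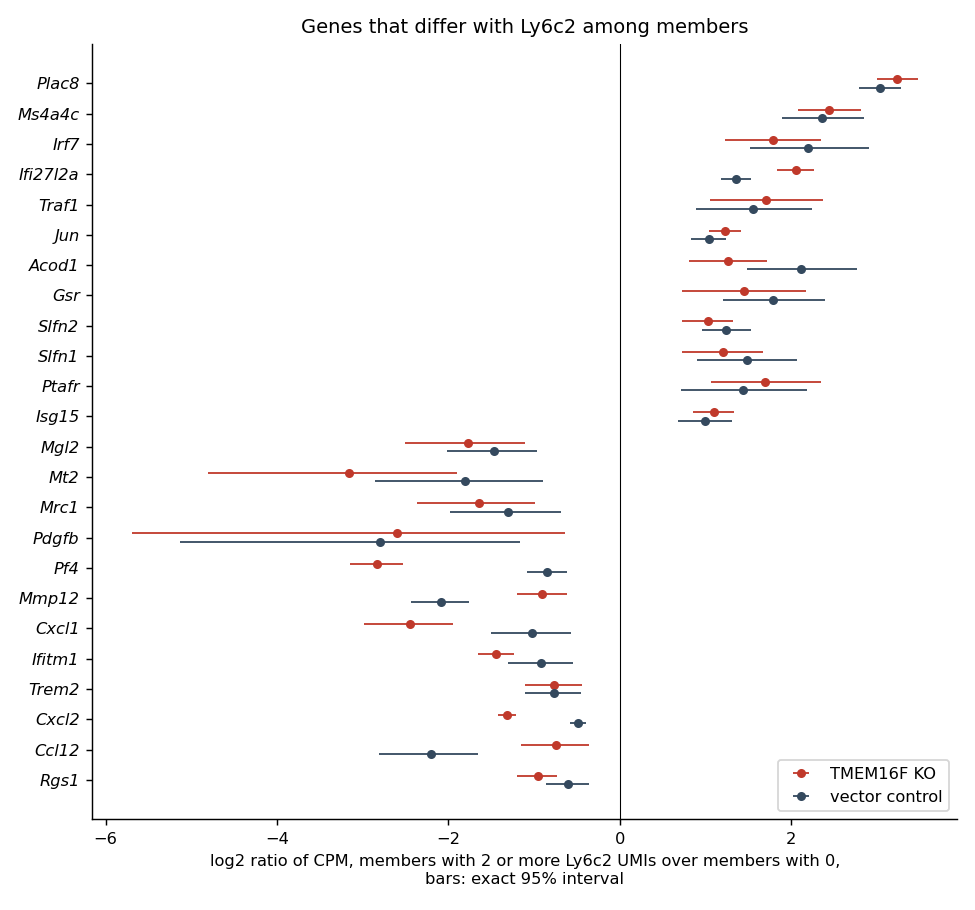
Genes that differ between members with at least 2 and with 0 Ly6c2 UMIs, as the log2 ratio of CPM with over without Ly6c2 in the TMEM16F KO and the vector control library, with exact 95% intervals. As linear ratios, Plac8 (9.45 and 8.19) is at the high end, and Pf4 (0.140 and 0.555) is among the genes lower with Ly6c2 in both libraries.

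The type I interferon genes were higher in the TMEM16F KO library in members with and without Ly6c2. Among members with Ly6c2, 10 of 18 compared genes were past 1.5-fold higher and 0 lower (8.51% and 8% of 2338 genes were higher and lower), at a median log2 ratio of 0.63. Among members without it 19 of 24 were higher and 1 lower (16.1% and 4.79% of 4570 genes), at a median of 0.92. The interferon gamma list differed more between the subsets, with 1 of 6 higher and a median of 0.06 with Ly6c2, and 11 of 14 higher and a median of 0.82 without it. The difference between the subsets was not tested. Cell cycle genes had a median of 0.60 with Ly6c2 and -1.09 without it, but the first value rests on few cells and the second does in part. Of the 57 Ube2c UMIs in vector control members without Ly6c2, 44 lay in 1 cell, and of 100 Pclaf UMIs 31 did. Of the 34 Pclaf UMIs in TMEM16F KO members with Ly6c2, 22 lay in 1 cell, and of 51 Ube2c UMIs 43 did. Pf4 stood at 259 CPM in TMEM16F KO and 437 CPM in vector control members with Ly6c2, the reverse of its order in all members, and 177 of the 193 UMIs in the vector control subset lay in 1 cell. A Pf4 UMI was read in 22 of 37 TMEM16F KO and 12 of 41 vector control members with Ly6c2.

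Beside their neighbours, the members differ by construction, since the rule used Il1b and C1q in the same cells, and these values are a description only. Of 3892 genes compared in both libraries, 70 were at least 1.5-fold higher in members than in Il1b-high cells in each library (1.8%) and 40 lower (1.03%). Lower ones included Il1a, the sister cytokine of Il1b, with 27.7 CPM in members and 145 CPM in Il1b-high cells of the TMEM16F KO library, and 34.5 and 125 CPM in the vector control library. Ptgs2, the prostaglandin-forming enzyme, had 218 and 532 CPM and then 157 and 356 CPM, and Nlrp3, an inflammasome sensor, 174 and 353 CPM and then 144 and 284 CPM. Inhba and the endotoxin co-receptor gene Cd14 were lower in members in the same way. Cx3cr1 was higher in members, at 22.8 CPM against 5.13 CPM among TMEM16F KO cells and 60.6 CPM against 31.9 CPM among vector control cells.

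Against C1q-high cells, 59 genes were at least 1.5-fold higher in members in both libraries (1.52%) and 25 lower (0.642%). Plac8 stood at 534 CPM in members and 163 CPM in C1q-high cells of the TMEM16F KO library, and at 489 and 93.0 CPM in the vector control library. Ly6c2 stood at 148 and 54.4 CPM and at 151 and 29.2 CPM. Macrophage genes were lower in members: Ms4a7 had 161 CPM in members and 542 CPM in C1q-high cells of the TMEM16F KO library, and 96.8 and 232 CPM in the vector control library. Apoe had 1510 and 3148 CPM and then 644 and 2205 CPM, and Cxcl9, a T cell chemokine, 652 and 1117 CPM and then 684 and 1181 CPM. On the markers outside the rule, the members' median log2 ratio over C1q-high cells was 0.52 and 1.35 for classical monocyte genes and -0.44 and -0.74 for macrophage genes, TMEM16F KO before vector control. Over Il1b-high cells the order was the other way, with medians of -0.31 and -0.02 for classical monocyte genes and 0.49 and 0.79 for macrophage genes.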

How the data were processed

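Single cells of MC38 tumours were sequenced with the 10x Genomics 3′ droplet assay, per the labels' protocols. The deposited values are whole UMI counts per gene (34290 genes) and barcode, with no normalisation, and per the file headers they come from Cell Ranger 8.0.0. Per the submitters' processing notes the genome was mm10, and Seurat 3.1.1 is listed without its role. The sources used here name no annotation for the counting. The members, the gene lists and the alternatives were chosen with earlier results of these data known.

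Counts were summed over members of a library and divided by their total to give CPM. CPM and shares have exact Poisson and Clopper-Pearson intervals and ratios exact conditional binomial ones, all at 95% and for counting error only. With 1 library per group no test was run. Genes with at least 50 summed UMIs were compared, and those in the fixed lists could be named. Beyond the lists, the 12 highest and 12 lowest ratios by the interval bound nearest 1 were named, among genes with at least 100 UMIs and read in at least 10% of the higher library's members, leaving out genes of the membership rule, mitochondrial, ribosomal protein, haemoglobin, immunoglobulin and T cell receptor genes and unnamed gene models. Against each neighbour, the 12 highest and 12 lowest by the smaller of the libraries' ratios could be named. T cells that show the background had at least 3 Cd3 UMIs and 0 of Csf1r and Adgre1. For a gene that T cells transcribe themselves, their share is not a measure of free RNA. For shares, cells were thinned to 2000 UMIs (seed 1). No doublet caller was run, and the rule's limits on T, NK and dendritic cell UMIs were the only guard. For the lists, 6 older symbols were matched. The fold and interval steps were run on simulated Poisson counts, which follow the model that the intervals assume. This checks the calculation only, and not the intervals of genes whose UMIs lie in few cells. Python 3.11.15, numpy 2.4.6, scipy 1.17.1, pandas 2.3.3 and matplotlib 3.10.9 were used. Values of a few single genes in the lists are not reported here.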

Additional observations from a re-analysis of the deposited data

Results flagged for a closer look

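Ccl24, an eosinophil chemokine, was lower in TMEM16F KO members and higher in the TMEM16F KO library among both neighbours. Its ratio of TMEM16F KO over vector control was 0.629 (0.488 to 0.806) in members, 4.65 (2.62 to 8.89) in Il1b-high cells, at 41.6 and 8.93 CPM, and 1.90 (1.47 to 2.46) in C1q-high cells, at 45.5 and 24 CPM. Among TMEM16F KO members 93.2% of its UMIs lay in 5 cells, and among vector control members 91.0%. Cxcl10 had a ratio of 1.90 (1.74 to 2.08) in members and 0.838 (0.799 to 0.878) in C1q-high cells, at 904 and 1080 CPM. Mmp8, a collagenase of neutrophils and monocytes, had a ratio of 0.191 (0.0971 to 0.347) in members, at 8.0 and 41.9 CPM, and 1.88 (1.11 to 3.20) in C1q-high cells, at 11.5 and 6.09 CPM. None of these differences between groups of cells was tested, and the intervals cover counting error only.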

How the results depend on the processing

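With 1 library per group, no library could be left out. No paired analysis was possible because each group has a single library. The share ratio of members ranged over 0.805 to 0.936. The count of type I interferon genes past 1.5-fold higher (23 of 32) was 15 of 28 with Il1b under 10 per 10000, 10 of 18 in members with at least 2 Ly6c2 UMIs, 8 of 14 with at least 200 summed UMIs and 10 of 32 at 2-fold. Their share (71.9%) was 53.1% with at least 1 Ccr2 UMI (9.69% of all genes there). It was 59.4% both with size factors (8.26%) and with each cell weighted equally (14.4%). The count of higher genes (657) was 199 with at least 2 Ly6c2 UMIs, 1229 with at least 20 summed UMIs, 168 with at least 200, 2500 with at least 1 UMI in each library and 128 at 2-fold, and that of lower genes (194) was 500, 30, 1508 and 33 in the last 4. With size factors, 32 genes were higher (70) and 65 lower (40) than in Il1b-high cells and 31 higher (59) than in C1q-high cells, and with each cell weighted equally 138 were higher than in Il1b-high cells. These settings change the cells, the genes or the scale compared, and the cause of the other changes was not tested. In members with at least 2 Ly6c2 UMIs the direction turned for Pf4 (0.592), Cx3cr1 (3.35), Scd2 (1.49) and Selenoh (1.12). For Pf4 and Cx3cr1 the turn rests on few cells, as given above. Of the other ratios of named genes under an alternative, 301 stayed within the interval of the value reported and 55 left it, with no turn past 1. The type I interferon list's median stayed between 0.60 and 0.92, and that of the interferon gamma list ran between 0.06 and 0.82, lowest in members with at least 2 Ly6c2 UMIs. There the medians of cytokines (-0.50), chemokine ligands (-0.11), suppressor genes (-0.32), innate sensors (-0.23) and cell cycle genes (0.60) had the other sign than in all members. So did those of chemokine receptors and adhesion (-0.25), phagocytosis (-0.06), myeloid transcription factors (-0.08) and lysosomal genes (-0.01). The class II median ran between -0.07 and 0.30, highest in the same members. Of all list medians under an alternative, 22 moved. Of alternatives added after seeing the data, leaving out the 5 members highest in interferon genes gave 18 of 29 interferon genes, and leaving out members with markers of another cell type gave 21 of 29. The latter did not leave out members for markers of type 2 conventional and monocyte-derived dendritic cells.

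Genes under 50 UMIs were not compared, and a gene whose UMIs lie in few cells has intervals that are too narrow.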
